A study of Mus musculus with 12 samples.

Results

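The T cell receptor gene segments are the variable (V), joining (J) and constant (C) pieces from which the antigen receptor of a T cell is built. Members were all genes whose mouse symbol begins with Trav, Traj, Trac, Trbv, Trbj, Trbc, Trgv, Trgc, Trdv, Trdc, Tcrg-V or Tcrg-C. This gave 147 of the 23185 genes tested. The alpha locus gave 95 segments (Trac, 50 Traj and 44 Trav, of which 4 are shared with the delta chain). The beta locus gave 36 (2 Trbc, 13 Trbj and 21 Trbv), the gamma locus 11 (4 Trgc and 7 Trgv) and the delta locus 5 Trdv. The delta constant region Trdc and the invariant NKT segment Trav11 were not analysed here.

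The cells were CD4+ T cells from mouse spleen, hybridised to 12 Mouse Gene 2.0 ST arrays, 3 per group. The Cre+ activated and Cre- activated groups had spent 24 hours on plate-bound antibody to CD3 with soluble antibody to CD28, and the Cre+ baseline and Cre- baseline groups were left untreated. Cre+ cells had the genotype Lck-Cre+;Ikzf-/-, in which Cre under the T lineage promoter Lck is the labelled means of deleting the transcription factor Ikaros, and Cre- cells had the genotype Lck-Cre-;Ikzf+/+. No group carried Cre with intact Ikaros or was cultured for 24 hours without antibodies, so those effects cannot be told apart from the effects of Ikaros loss and of activation. No source used here says that the 3 arrays of a group came from separate mice, so p-values measure the spread between these samples, which may be technical.

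T cells assemble each receptor chain by cutting and joining DNA in the thymus. An alpha or gamma chain joins a V to a J segment, and a beta or delta chain adds a D segment between them, after which the transcript is spliced to a constant region. Most CD4 T cells carry an alpha beta receptor, while gamma delta T cells are a separate lineage, although alpha beta T cells can also carry rearranged gamma genes. The delta segments lie inside the alpha locus and are deleted from a chromosome that rearranges alpha. Each T cell keeps its own joined V and J segments, so the level of a segment in a population depends in part on how many cells use it and how much RNA each holds. On these arrays fewer cells of a type and less RNA per cell cannot be told apart. J segments that a cell does not use can also stay in its DNA. Whether the arrays read RNA from these was not tested, so the level of a J segment is not a measure of its use.

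Values are log2 expression normalised between arrays, so every level is relative to the other RNA in its sample, and differences were compared between segments but levels were not. The arrays had medians between 4.04 and 4.17, and 122 of the 147 segments read above the array median on every array. Segment means over the 12 arrays ran from 1.16 to 12.29, and 120 segments averaged at least 5. Arrays of 1 group correlated across genes at 0.972 to 0.994 after activation and at 0.992 to 0.993 at baseline. The T cell label was borne by Cd4, which read between 10.48 and 11.60 on all arrays, while B cell markers were also present at baseline, where Cd79a read between 9.53 and 9.81. Ikzf1 stood 0.13 lower in Cre+ than in Cre- cells after activation and 0.17 lower at baseline, neither of which passed (limma adjusted p = 0.993 and 0.968). No source used here says whether its probes lie in the deleted part of the gene, so this probe set did not check the genotype labels.

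Most segments were lower in activated than in baseline cells of both genotypes, and none rose. In Cre+ cells 116 of the 147 segments fell and 31 did not pass, at a limma adjusted p under 0.05 over all genes tested, whereas 10.6% of all genes fell and 10.1% rose. In Cre- cells 92 segments fell and 55 did not pass, whereas 9.10% of all genes fell and 9.39% rose. The median log2 difference, activated minus baseline, was -0.89 over the segments and -0.02 over all genes in Cre+ cells. The corresponding medians in Cre- cells were -0.75 and -0.00. Among the 9444 genes of all kinds with a mean of at least 5, 18.6% fell in Cre+ and 15.9% in Cre- cells. Of the 120 segments with such a mean, 88.3% fell in Cre+ and 71.7% in Cre- cells. The same 87 segments fell in both genotypes, which is 75% of those that fell in Cre+ cells and 94.6% of those that fell in Cre- cells. In 132 of the 147 segments all 3 Cre+ activated arrays read below all 3 Cre+ baseline arrays, a pattern that 19.3% of all genes showed. The corresponding count was 119 in Cre- cells, against 17.4% of all genes. The opposite pattern, all activated above all baseline arrays, was seen in 0 segments in Cre+ cells (17.3% of all genes) and in 1 segment, Trgv7, in Cre- cells (17.7% of all genes).

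These counts moved with single arrays. The Cre+ count was 58 without activated array 3, 67 without baseline array 1, 74 without activated array 1 and 75 without baseline array 3. The Cre- count was 56 without baseline array 3 and 58 without activated array 3.

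**Figure D1:**
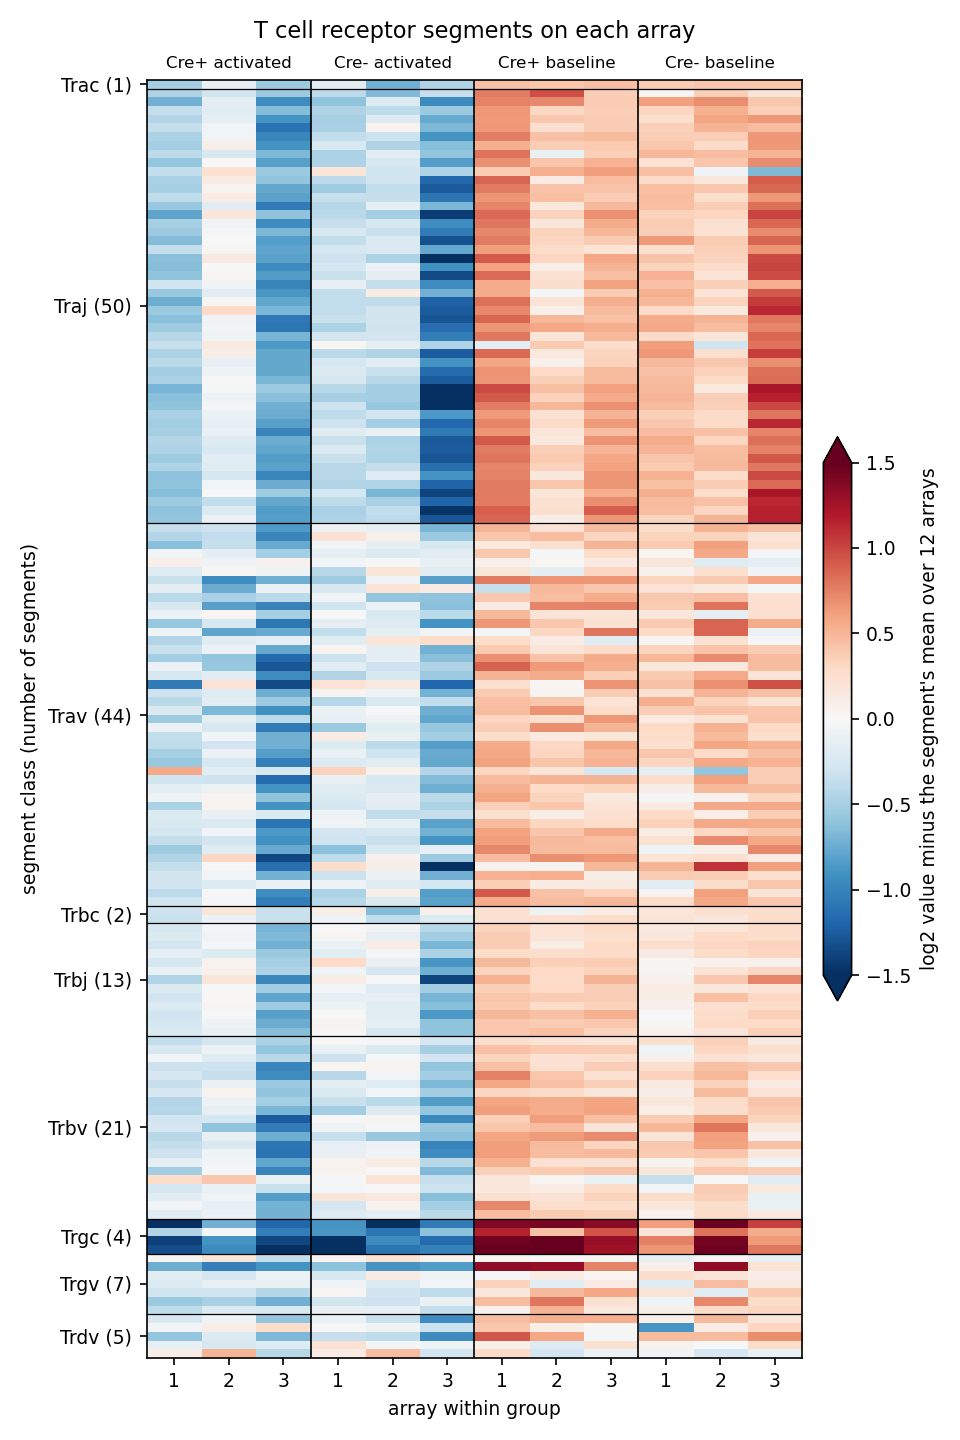
Each row is 1 of the 147 segments, grouped by class and in locus order within a class, and each column is 1 of the 12 arrays in the groups Cre+ activated, Cre- activated, Cre+ baseline and Cre- baseline. Colour is the log2 value minus that segment's mean over all arrays, drawn between -1.5 and 1.5, with the activated arrays mostly blue (below the mean), the baseline arrays mostly red (above it) and the gamma constant regions deepest in colour.

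The medians of the 4 loci were unequal, which is a description without a test. In Cre+ cells 78 of 95 alpha, 28 of 36 beta, 8 of 11 gamma and 2 of 5 delta segments fell, with median log2 differences of -0.94, -0.71, -1.08 and -0.23. In Cre- cells 74 of 95 alpha, 10 of 36 beta, 6 of 11 gamma and 2 of 5 delta segments fell, with medians of -0.91, -0.49, -0.54 and -0.07. The delta medians rested mostly on dim segments. The only delta segment with a mean of at least 5, Trdv2-2, had differences of -0.99 in Cre+ and -1.11 in Cre- cells. The gamma medians combined Trgc (medians -2.68 and -2.19) with Trgv (medians -0.51 and -0.36). The alpha medians lay close together in Cre+ and Cre- cells, but the alpha classes differed in opposite directions. The Traj median was -0.99 in Cre+ and -1.13 in Cre- cells, and the Trav median was -0.90 and -0.69. Single arrays weighed on the Traj medians. Cre- activated array 3 was lowest of its group in 49 of 50 Traj (median deviation from the group mean -0.51), and Cre- baseline array 3 highest in 45 (0.29). Cre+ activated array 3 was lowest in 46 (-0.33), and Cre+ baseline array 1 highest in 45 (0.22). The order of the 2 Traj medians is therefore uncertain. In Cre- cells 35 of the 36 beta segments were below 0, as were 11761 of all 23185 genes. All activated arrays read below all baseline arrays in 27 of the 36, against 17.4% of all genes. Of the beta segments, 18 passed in Cre+ cells alone, but no segment passed the test of the difference between the activation responses. That test is described with the genotype comparisons.

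**Figure D2:**
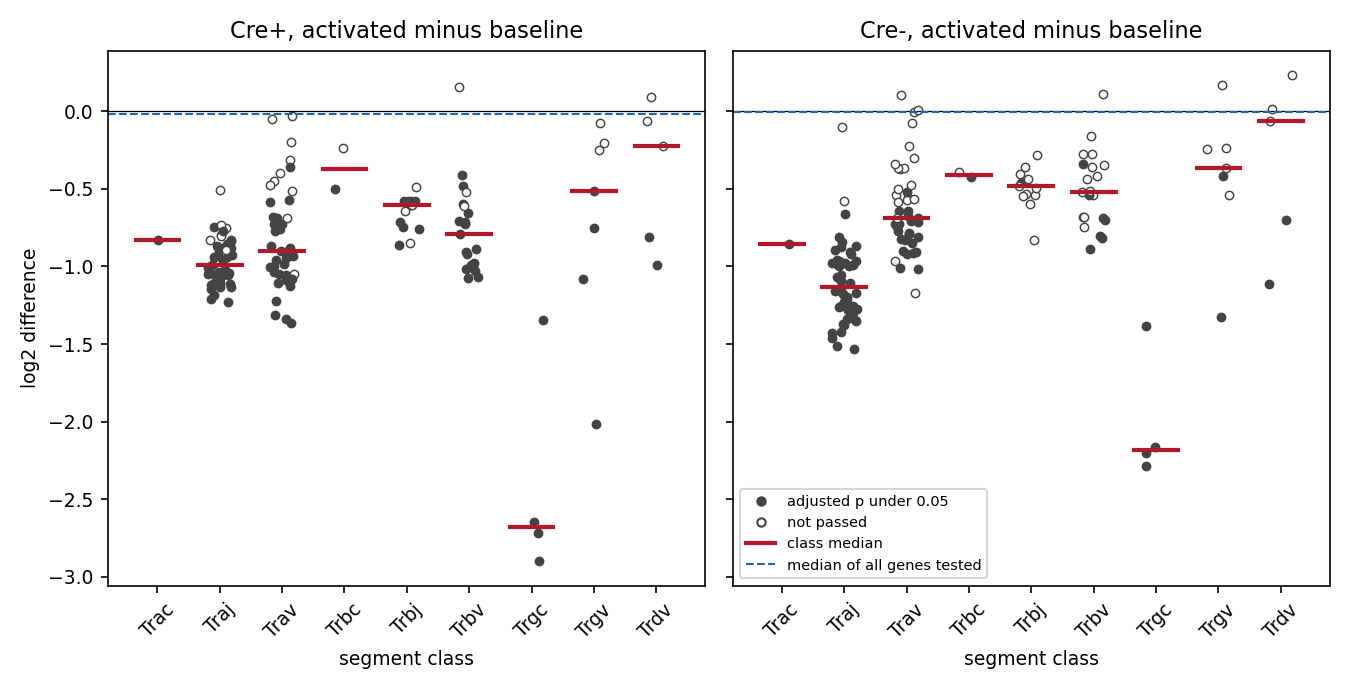
Each point is 1 segment, with its log2 difference (activated minus baseline) on the vertical axis and its class on the horizontal axis, for Cre+ cells on the left and Cre- cells on the right. Filled points passed the limma test, red bars are class medians and the dashed line is the median of all genes tested, which lies at -0.02 and -0.00, and Trgc lies lowest of the classes in both panels, with medians of -2.68 and -2.19.

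The alpha constant region is shared by all alpha chains and so does not depend on which V and J a cell uses. The beta and gamma loci each have several constant regions, so their values can depend on the segments a cell uses. Trac, the constant region of the alpha chain, read 11.67, 12.05 and 11.62 on the Cre+ activated arrays, against 12.61, 12.58 and 12.62 on the Cre+ baseline arrays. It read 12.01, 11.44 and 11.71 on the Cre- activated arrays, against 12.55, 12.58 and 12.59 on the Cre- baseline arrays. No activated array overlapped a baseline array in either genotype, and the 6 baseline readings lay between 12.55 and 12.62. Trac fell by 0.83 in Cre+ cells (SE 0.15, 1.78-fold lower, limma adjusted p = 0.00225) and by 0.85 in Cre- cells (SE 0.15, 1.81-fold lower, limma adjusted p = 0.00208).

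The beta chain has 2 nearly identical constant regions, Trbc1 and Trbc2, whose probe sets may read each other's transcripts, so their separate values are uncertain. Trbc2 read 11.46, 11.70 and 11.46 on the Cre+ activated arrays, against 12.02, 12.04 and 12.07 at baseline. On Cre- arrays it read 11.72, 11.42 and 11.59 after activation, against 11.98, 11.96 and 12.07 at baseline. Again the groups did not overlap, and Trbc2 fell by 0.50 in Cre+ cells (SE 0.11, limma adjusted p = 0.00638) and by 0.43 in Cre- cells (SE 0.11, limma adjusted p = 0.0167). Trbc1 read 11.99, 12.47 and 11.96 on the Cre+ activated arrays, against 12.52, 12.21 and 12.41 at baseline. Its Cre- values were 12.39, 11.65 and 12.36 after activation, against 12.48, 12.54 and 12.56 at baseline. Trbc1 groups overlapped in Cre+ cells, and it did not pass in Cre+ (difference -0.24, SE 0.20, limma adjusted p = 0.472) or Cre- cells (difference -0.39, SE 0.20, limma adjusted p = 0.219). Trac, Trbc1 and Trbc2 lay near the top of the range of all values, which ended at 13.20, and whether the arrays compress differences there was not tested.

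Trgc4, Trgc2 and Trgc1, constant regions of the gamma chain, had the 3 largest falls of the 147 segments in both genotypes. Trgc4 read 4.94, 5.33 and 4.73 on the Cre+ activated arrays, against 7.87, 8.29 and 7.55 at baseline. On Cre- arrays it read 4.44, 5.18 and 5.26 after activation, against 6.94, 7.74 and 7.07 at baseline. Activated and baseline readings did not overlap in either genotype, and Trgc4 was 7.47-fold lower in Cre+ cells (difference -2.90, SE 0.28, limma adjusted p = 3.29e-05) and 4.88-fold lower in Cre- cells (difference -2.29, SE 0.28, limma adjusted p = 0.000217). Trgc2 read 4.91, 5.41 and 4.95 on the Cre+ activated arrays, against 7.75, 8.05 and 7.61 at baseline. Its Cre- readings were 4.73, 5.37 and 5.16 after activation, against 7.07, 7.74 and 6.95 at baseline. Trgc2 was thus 6.57-fold lower in Cre+ cells (limma adjusted p = 1.49e-05) and 4.49-fold lower in Cre- cells (limma adjusted p = 8.64e-05).

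Trgc1 was 6.27-fold lower in Cre+ and 4.61-fold lower in Cre- cells (limma adjusted p = 7.53e-05 and 0.000320), and its baseline readings reached 6.34. Its activated readings, between 3.00 and 4.16, lay close to or below the array medians. Trgc3 read under 4.2 on all arrays and was 2.54-fold lower in Cre+ and 2.61-fold lower in Cre- cells (limma adjusted p = 0.00410 and 0.00386). Its activated readings, between 1.90 and 2.98, lay below the array medians and were not shown to be above background, so these sizes are uncertain. The gamma constant regions resemble each other to differing degrees, and whether their probe sets share signal was not tested, so the close values of Trgc2 and Trgc4 cannot be counted as separate evidence. Among the Cre- baseline arrays, array 2 read highest in all 4 gamma constant regions and in Trgv4.

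**Figure D3:**
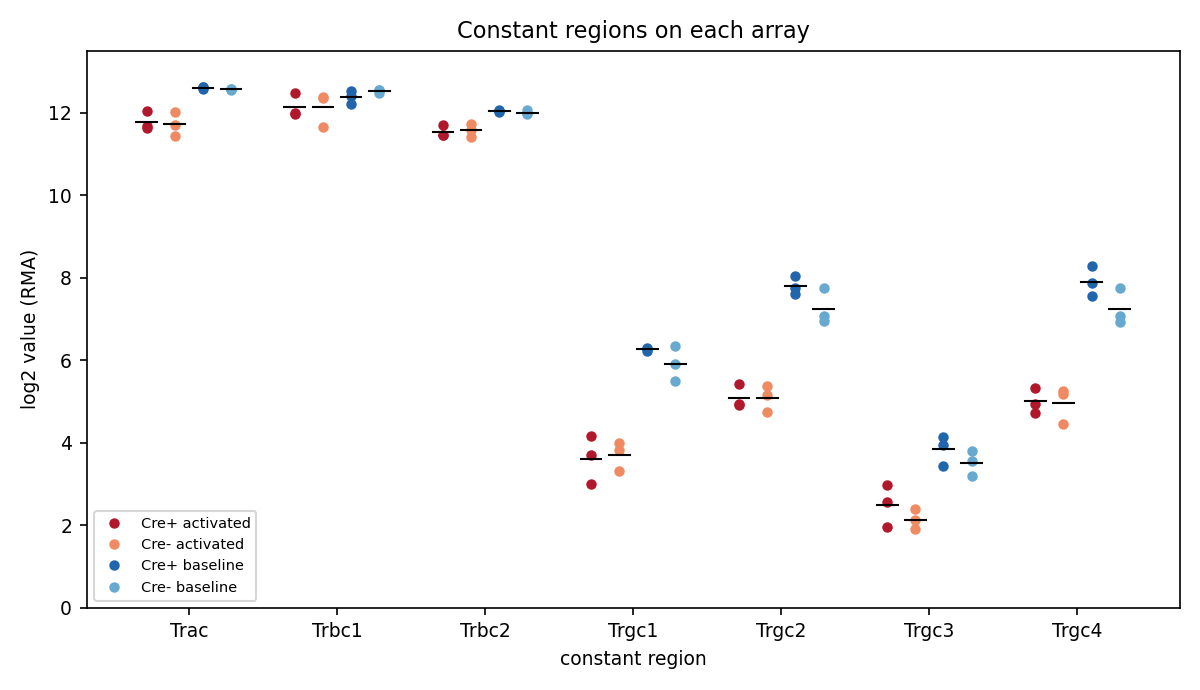
Points are the log2 values of the 7 constant regions on each array, coloured by group, and black bars are group means of 3 arrays. Trac, Trbc1 and Trbc2 read between 11.42 and 12.62 throughout, whereas each gamma constant region read lower on every activated array than on any baseline array of the same genotype.

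Whether 2 constant regions fell by different amounts was tested on the log2 ratio of the pair on each array, by an exact two-sided permutation of the activated and baseline labels within each genotype (400 permutations, smallest possible p = 0.005), over 21 pairs with Benjamini-Hochberg adjustment. This test was added after the data were seen. Trac fell more than Trbc1 by 0.52 log2 units, averaged over the genotypes, and more than Trbc2 by 0.38 (adjusted p = 0.007 for both). All of these lay near the top of the range, where compression of differences was not tested, so the sizes of pairs with them are uncertain. Trgc1, Trgc2 and Trgc4 fell more than Trac by 1.59, 1.60 and 1.75 (adjusted p = 0.007 each). The test did not separate Trbc1 from Trbc2 (mean difference 0.15, adjusted p = 0.216) or Trgc1, Trgc2 and Trgc4 from each other (mean differences 0.02 to 0.17, adjusted p = 0.14 to 0.94). Each of the 6 pairs with Trgc3 passed (adjusted p = 0.007 to 0.0371), but its activated readings, between 1.90 and 2.98, lay below the array medians and were not shown to be above background, so no size is given for them. The activated readings of Trgc1 were also close to or below those medians. All remaining pairs passed.

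Most joining segments of the alpha locus fell. Of the 50 Traj, 43 fell in Cre+ cells (median -0.99) and 48 in Cre- cells (median -1.13). The 2 that did not pass in Cre- cells, Traj25 and Traj46, named after their values were seen, averaged under 5. Traj3 read 5.31, 5.71 and 5.07 on the Cre+ activated arrays, against 6.81, 6.15 and 6.82 at baseline, and fell by 1.23 (SE 0.32, limma adjusted p = 0.0171). Traj58 read 6.31, 6.90 and 6.09 on the Cre+ activated arrays, against 7.77, 7.75 and 7.41 at baseline, and fell by 1.21 (SE 0.22, limma adjusted p = 0.00290). In neither segment did the Cre+ groups overlap.

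In Cre- cells the largest alpha falls were all in Traj segments. Traj19 read 6.24, 6.23 and 5.20 on the Cre- activated arrays, against 7.25, 7.12 and 7.91 at baseline, and fell by 1.53 (SE 0.30, limma adjusted p = 0.00425). Traj20 fell by 1.51, Traj5 by 1.46, Traj3 by 1.42 and Traj2 by 1.38 (limma adjusted p between 0.00675 and 0.0115). In Traj19 array 3 was the lowest of the Cre- activated and the highest of the Cre- baseline arrays. Traj5 did not pass in Cre+ cells (difference -0.89, limma adjusted p = 0.0622).

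Of the 3 segments measured that belong to known invariant receptors, 2 fell in both genotypes. Traj18 joins to Trav11 in the receptor of invariant NKT cells. It read 7.91, 8.49 and 7.79 on the Cre+ activated arrays, against 9.30, 9.02 and 9.21 at baseline, and 8.21, 7.94 and 6.94 on the Cre- activated arrays, against 8.99, 8.87 and 9.52 at baseline. It fell by 1.11 in Cre+ and by 1.43 in Cre- cells (limma adjusted p = 0.0215 and 0.00646). Trav1 and Traj33 form the receptor of MAIT cells, which recognise vitamin B metabolites. Trav1 fell by 0.91 in Cre+ and by 0.71 in Cre- cells (limma adjusted p = 0.00488 and 0.0189), and Traj33 fell by 1.17 in Cre- cells (limma adjusted p = 0.0271) but did not pass in Cre+ cells (difference -0.98, limma adjusted p = 0.0522). Conventional receptors use these segments too. The Traj medians to set beside Traj18 and Traj33 were -0.99 in Cre+ and -1.13 in Cre- cells.

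When an alpha gene rearranges, the J segments between the chosen J and Trac stay in the DNA, whereas those upstream of it are removed. The Traj differences were therefore set against their order along the locus, taken from RefSeq gene positions. The 17 segments nearest the V genes (Traj59 to Traj39), the next 17 (Traj38 to Traj21) and the 16 nearest Trac (Traj20 to Traj2) had median differences of -0.95, -0.92 and -1.05 in Cre+ cells, and of -0.97, -1.16 and -1.29 in Cre- cells. Across the 50 segments, which share arrays and cells and are not independent, Spearman's rho between order and difference was -0.29 in Cre+ and -0.60 in Cre- cells. Leaving out each array in turn gave -0.52 to -0.13 in Cre+ cells, with -0.13 without baseline array 3, -0.18 without activated array 2 and -0.52 without baseline array 2. In Cre- cells the range was -0.62 to -0.45, with -0.45 without baseline array 3. No test was made of this trend.

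**Figure D4:**
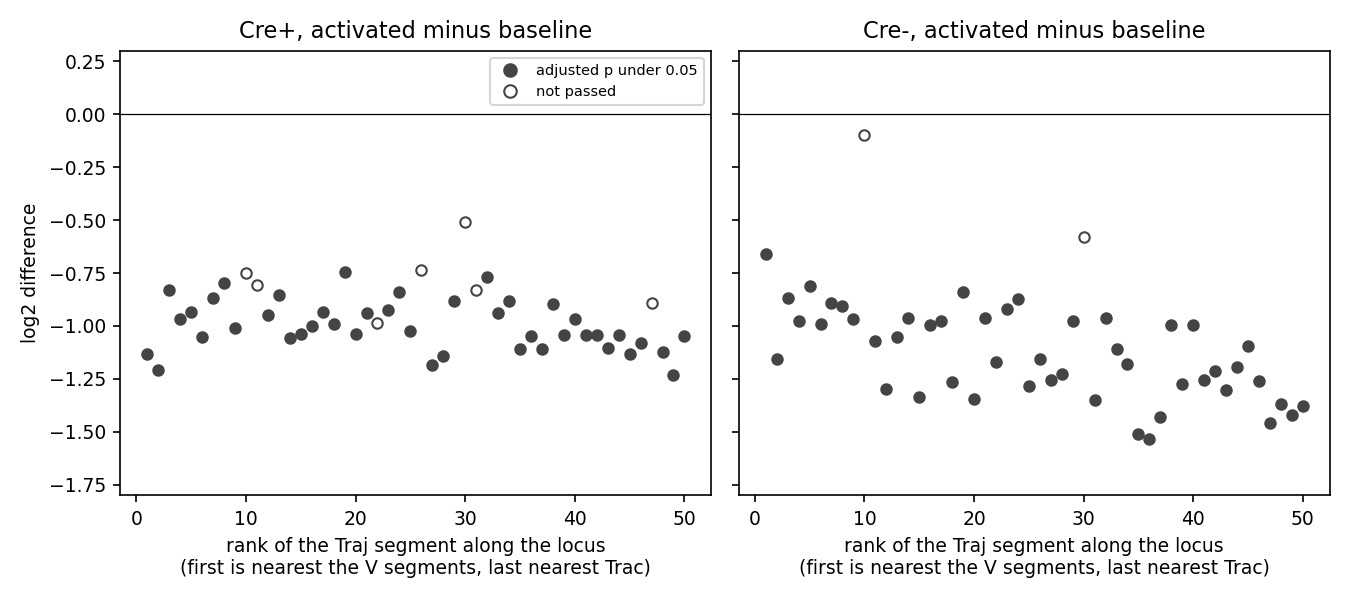
Each point is 1 Traj segment, with its rank along the alpha locus (first nearest the V genes, last nearest Trac) on the horizontal axis and its log2 difference, activated minus baseline, on the vertical axis, for Cre+ cells on the left and Cre- cells on the right. Filled points passed the limma test, and Spearman's rho between rank and difference is -0.29 in Cre+ and -0.60 in Cre- cells. In Cre+ cells the middle segments (median -0.92) fell no further than those nearest the V genes (median -0.95), and rho was -0.13 without baseline array 3.

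Among the alpha variable segments 34 of 44 fell in Cre+ cells (median -0.90) and 25 in Cre- cells (median -0.69). Trav7d-3 read 5.96, 5.35 and 5.56 on the Cre+ activated arrays, against 7.07, 6.95 and 6.94 at baseline, and was 2.57-fold lower (log2 SE 0.19, limma adjusted p = 0.000526). Trav7d-3 read 5.76, 6.23 and 5.47 on the Cre- activated arrays, against 6.62, 6.68 and 6.87 at baseline, and fell by 0.91 (SE 0.19, limma adjusted p = 0.00685). Trav9n-4 fell by 1.31 in Cre+ and by 0.92 in Cre- cells (limma adjusted p = 0.000407 and 0.00419), and Trav13d-1 by 1.22 and by 0.83 (limma adjusted p = 0.00403 and 0.0330). Trav8n-2 read 5.29, 4.82 and 4.10 on the Cre+ activated arrays, against 6.27, 6.03 and 5.93 at baseline, and fell by 1.34 (limma adjusted p = 0.00241). It did not pass in Cre- cells (difference -0.57, limma adjusted p = 0.130). The mouse alpha locus contains duplicated V clusters, marked d and n in the symbols, whose copies may share signal.

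The widest spread among the 3 arrays of a group lay in alpha V segments. Trav13-5 read 3.96, 3.78 and 2.04 on the Cre- activated arrays, against 4.20, 4.78 and 4.31 at baseline, a range of 1.92 among the activated arrays, and its difference of -1.17 did not pass (limma adjusted p = 0.0903). Trav13-4-dv7 spread over 1.68 and Trav13n-4 over 1.56 on the Cre+ activated arrays, with array 3 lowest in both. Trav6-1 and Trav14-1, named after their values were seen, had differences between -0.05 and 0.11 in both genotypes and did not pass.

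In the beta locus 18 of 21 Trbv and 9 of 13 Trbj segments fell in Cre+ cells, with medians of -0.79 and -0.61. In Cre- cells 8 Trbv and 1 Trbj segment fell, with medians of -0.52 and -0.48. Trbv13-2, a V segment used by many invariant NKT cells as well as conventional cells, read 8.64, 8.94 and 8.38 on the Cre+ activated arrays, against 9.69, 9.62 and 9.66 at baseline. In Cre- cells the readings were 8.54, 8.87 and 8.49 after activation, against 9.16, 9.32 and 9.46 at baseline. It was 2.01-fold lower in Cre+ cells (log2 SE 0.15, limma adjusted p = 0.000836) and fell by 0.68 in Cre- cells (SE 0.15, limma adjusted p = 0.00905), with no overlap between the groups in either genotype.

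The deepest beta falls in Cre+ cells were in Trbv13-3 (-1.07), Trbv15 (-1.07), Trbv16 (-1.03), Trbv17 (-1.02) and Trbv14 (-0.99), beside Trbv13-2, with limma adjusted p between 0.000836 and 0.0210. Trbv15 read 6.35, 6.65 and 6.04 on the Cre+ activated arrays, against 7.36, 7.40 and 7.47 at baseline. The beta V segments that fell in Cre- cells were Trbv16 (-0.89), Trbv12-2 (-0.82), Trbv15 (-0.80), Trbv14 (-0.70), Trbv5 (-0.69), Trbv13-2 (-0.68), Trbv12-1 (-0.54) and Trbv1 (-0.34), with limma adjusted p between 0.00318 and 0.0494. All 8 had also fallen in Cre+ cells, and their Cre- values were smaller. The Cre- calls of Trbv14, Trbv1 and Trbv12-1 were lost in 13, 11 and 9 of the 21 alternative settings, those that left out 1 array included. Trbv12-1 and Trbv12-2, and the 3 Trbv13 segments, are close relatives whose probe sets may share signal. Trbv21, the only segment of its locus above 0 in both genotypes, had differences of 0.16 and 0.11 at readings under 3.2 and did not pass.

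The Trbj segments lie in 2 clusters, each followed by its own constant region. In Cre+ cells 3 of 7 Trbj1 and 6 of 6 Trbj2 segments fell, with medians of -0.60 and -0.73. In Cre- cells the counts were 1 of 7 and 0 of 6, with medians of -0.46 and -0.49. All Cre- activated arrays nonetheless read below all Cre- baseline arrays in 9 of the 13 Trbj segments, against 17.4% of all genes. Trbj1-4, the Trbj segment that fell in both genotypes, read 9.57, 9.51 and 9.16 on the Cre+ activated arrays, against 9.99, 9.98 and 10.00 at baseline (difference -0.58, limma adjusted p = 0.0115). Its Cre- call (difference -0.46, limma adjusted p = 0.0365) was lost in 12 of the 21 alternative settings. Trbj1-5 and Trbj1-7 spread most among replicates, with ranges of 1.17 and 1.47 on the Cre- activated arrays, and did not pass in either genotype.

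Among the 7 gamma V segments 4 fell in Cre+ and 2 in Cre- cells. Trgv4 read 2.90, 2.61 and 2.74 on the Cre+ activated arrays, against 4.97, 4.95 and 4.38 at baseline, and fell by 2.02 (SE 0.28, limma adjusted p = 0.000468). Trgv4 read 3.02, 2.75 and 2.80 on the Cre- activated arrays, against 3.74, 4.97 and 3.84 at baseline, and fell by 1.33 (SE 0.28, limma adjusted p = 0.00663). The activated readings of Trgv4 lay below the array medians. Trgv1 fell in both genotypes, by 0.51 in Cre+ and by 0.42 in Cre- cells (limma adjusted p = 0.0182 and 0.0492). Its Cre- call was lost in 17 of the 21 alternative settings. Trgv2 fell by 1.08 and Trgv3 by 0.75 in Cre+ cells (limma adjusted p = 0.00219 and 0.00638) and did not pass in Cre- cells (differences -0.54 and -0.36, limma adjusted p = 0.0728 and 0.155). Trgv5, Trgv6 and Trgv7 read under 3 on all arrays and did not pass.

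The gamma J segments lie outside the symbol rule and were looked at after the gamma constant regions had been seen. Trgj1, Trgj2 and Trgj4 fell in both genotypes, by 3.27, 2.83 and 2.38 in Cre+ cells and by 2.59, 2.59 and 2.25 in Cre- cells, and Trgj3 fell by 2.30 in Cre+ cells and did not pass in Cre- cells (difference -0.80, limma adjusted p = 0.150). The activated readings were 1.28 to 1.93 for Trgj1, 3.05 to 4.15 for Trgj2 and 1.38 to 2.32 for Trgj3, near or below the array medians and not shown to be above background, so these 3 segments may have fallen by more than the values given. Trdj1 and Trdj2 did not pass in either genotype.

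Of the 5 delta V segments, 2 fell in both genotypes. Trdv2-2 read 5.32, 5.70 and 5.23 on the Cre+ activated arrays, against 6.84, 6.49 and 5.90 at baseline, and fell by 0.99 (SE 0.23, limma adjusted p = 0.0108). Its Cre- readings were 5.56, 5.53 and 4.97 after activation, against 6.39, 6.39 and 6.61 at baseline, a fall of 1.11 (SE 0.23, limma adjusted p = 0.00650). Trdv1 fell by 0.81 in Cre+ and by 0.70 in Cre- cells (limma adjusted p = 0.0150 and 0.0332), from baseline readings between 4.97 and 5.44. Trdv2-1, Trdv4 and Trdv5 had differences between -0.23 and 0.23 in both genotypes and did not pass, and Trdv5 lies apart from the other delta V segments, beyond the delta constant region. Trdv2-2 was the only delta segment with a mean of at least 5, and the fall of the 4 dual Trav-dv segments, which both chains can use, ranged in Cre+ cells from -1.11 in Trav13-4-dv7 (limma adjusted p = 0.0284) to -0.92 in Trav4-4-dv10 (limma adjusted p = 0.00602). In Cre- cells 3 of these 4 fell, and Trav13-4-dv7 did not pass (difference -0.48, limma adjusted p = 0.372). The Cre+ call of Trav13-4-dv7 was lost in 6 of the 21 alternative settings, and its difference was -0.68 without Cre+ activated array 3.

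The activated arrays numbered 3 stood apart in both genotypes. Among the Cre+ activated arrays, array 3 was lowest in 46 of 50 Traj, 34 of 44 Trav, all 13 Trbj and all 21 Trbv segments. Among the Cre- activated arrays it was lowest in 49 of 50 Traj, 36 of 44 Trav, all 13 Trbj and 20 of 21 Trbv segments. In Trac, Trbc1 and Trbc2 the lowest Cre- activated array was array 2. The mean of 11 cell cycle genes was 8.94 on Cre+ and 9.32 on Cre- activated array 3, against 6.76 to 7.44 on the other activated arrays and 6.64 to 6.83 at baseline. The B cell markers averaged 7.40 and 6.61 on the same arrays, against 5.17 to 6.75 on the other activated arrays. The part of these differences in the segment values was not tested. In the fit without both arrays 110 segments fell in Cre+ and 80 in Cre- cells.

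Markers of other cells also moved with activation. Of 9 measured B cell markers, 6 fell in Cre+ and 8 in Cre- cells, with the mean of the list between 5.82 and 7.40 on Cre+ activated and between 8.22 and 8.27 on Cre+ baseline arrays, and between 5.17 and 6.61 on Cre- activated and between 8.34 and 8.65 on Cre- baseline arrays. Of 8 myeloid markers 7 fell in each genotype. Of 7 NK cell markers 3 fell and 1, Eomes, rose in Cre+ cells, and 4 fell in Cre- cells. None of the 3 CD8 T cell markers passed in either genotype. Of 8 measured markers of gamma delta and innate-like T cells, 4 fell in Cre+ and 2 in Cre- cells, with list means of 3.83 to 4.01 on Cre+ activated and 4.43 to 4.79 on Cre+ baseline arrays, and of 3.57 to 3.79 on Cre- activated and 4.24 to 4.27 on Cre- baseline arrays. The part of these cells in the falls of the receptor segments, the gamma constant regions included, was not tested.

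The partners of the receptor chains changed less evenly. The CD3 chains carry the signal of the receptor into the cell. Cd3g fell by 0.71 in Cre+ and by 0.64 in Cre- cells (limma adjusted p = 0.000941 and 0.00194). Cd3d and Cd3e fell by 0.80 and 0.60 in Cre+ cells (limma adjusted p = 0.0353 and 0.0120) and did not pass in Cre- cells (differences -0.53 and -0.42, limma adjusted p = 0.171 and 0.0647). Cd247, which encodes the zeta chain, did not pass in Cre+ (difference 0.31, limma adjusted p = 0.497) or Cre- cells (difference 0.17, limma adjusted p = 0.751). Among the coreceptors Cd4 fell by 0.50 in Cre+ cells (limma adjusted p = 0.0287) and did not pass in Cre- cells (difference -0.44, limma adjusted p = 0.0531), while Cd8a and Cd8b1 passed in neither.

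Of 4 genes of rearrangement and the pre-TCR, only Dntt passed. Dntt, which encodes the terminal transferase that adds bases at V(D)J junctions, read 3.04, 3.04 and 2.46 on the Cre+ activated arrays, against 5.39, 5.55 and 6.09 at baseline. Dntt readings in Cre- cells were 2.75, 2.55 and 3.04 after activation, against 4.51, 4.82 and 5.05 at baseline. It fell by 2.83 in Cre+ and by 2.02 in Cre- cells (limma adjusted p = 8.69e-06 and 0.000105). The recombinase genes Rag1 and Rag2 read under 3 on all arrays, and neither these nor Ptcra, the pre-TCR alpha chain, passed.

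No segment differed between the genotypes at the threshold in either state. After activation 0 of 147 segments passed by limma, with 0.729% of all genes passing in either direction, and 4 had an unadjusted p under 0.05, a share to be read against 7.51% of all genes. The background count depended on the arrays fitted. It was 169 genes in the main fit and 9 with only the activated arrays fitted, where 0 segments passed. At baseline 0 of 147 passed, against 0.552% of all genes, and 5 had an unadjusted p under 0.05, against 6.93% of all genes. These baseline counts also depended on the arrays fitted. With only the baseline arrays fitted, 16 segments had an unadjusted limma p under 0.05 and 0 passed. The share of all genes under that p was not compared there, but 251 genes passed, against 128 in the main fit. The main fit pools the spread of all groups. Activated arrays correlated less (lowest 0.976 in Cre+ and 0.972 in Cre-) than baseline arrays (lowest 0.992 in both). The smallest limma adjusted p-values in the main fit were 0.311 for Trav3-1 after activation and 0.357 for Traj59 at baseline.

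**Figure D5:**
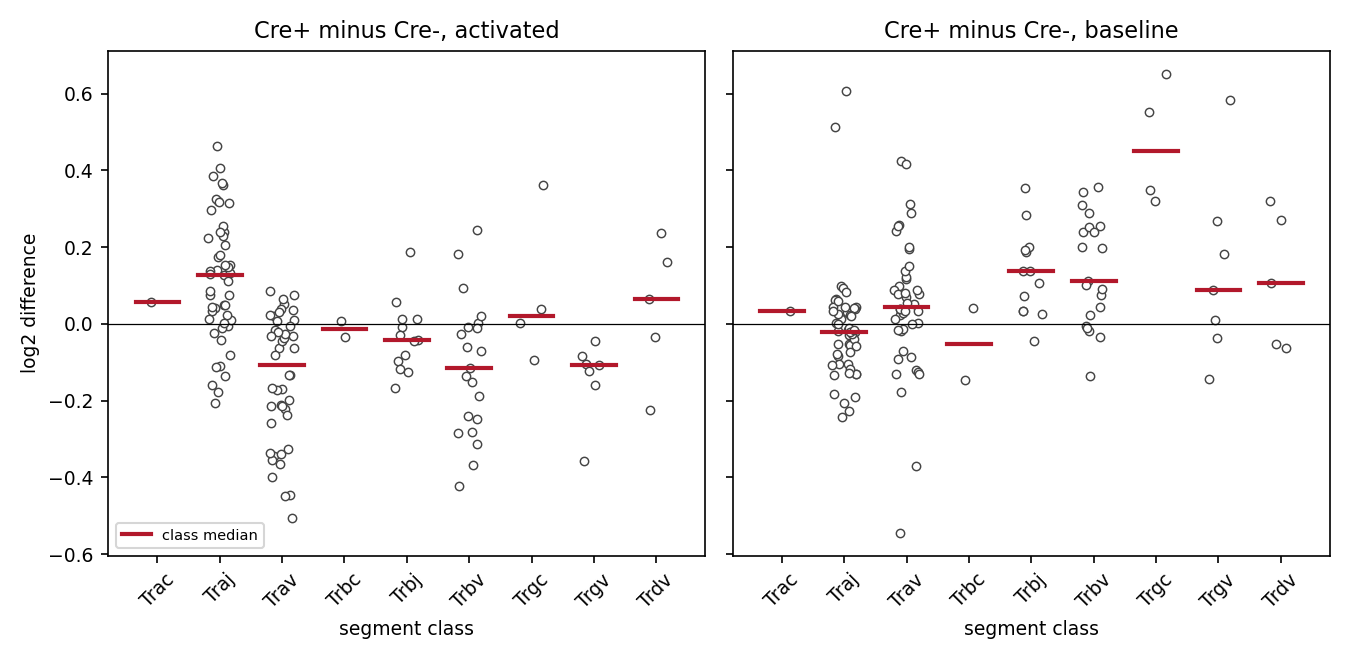
Each point is 1 segment, with its log2 difference between Cre+ and Cre- cells (Cre+ minus Cre-) on the vertical axis and its class on the horizontal axis, after activation on the left and at baseline on the right, and red bars are class medians. No point passed the limma test, and the Trgc median was 0.02 after activation and 0.45 at baseline.

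After activation the classes lay on either side of 0. In Cre+ relative to Cre- cells 39 of 50 Traj were above 0 (median 0.13), while 33 of 44 Trav (median -0.11) and 16 of 21 Trbv (median -0.11) were below it. Over all genes 10731 of 23185 were above 0 and 12454 below it. Segments of a class share arrays and cells and are not independent, and Cre- activated array 3 was the lowest of its group in 49 of 50 Traj. Trav3-1 read 5.21, 5.48 and 5.08 on the Cre+ activated arrays, against 5.80, 5.72 and 5.59 on the Cre- activated arrays (difference -0.45, SE 0.14, limma adjusted p = 0.311). Trav2 (difference -0.51, limma adjusted p = 0.525), Trbv1 (-0.29, 0.454) and Trbv14 (-0.42, 0.770) did not pass either. Trav3-1, Trav2 and Trbv1 passed when arrays were weighted by their agreement with the fit, a setting in which 6 segments and 2416 of all genes passed. All Cre+ arrays read below all Cre- arrays in 4 segments, Trav3-1, Trbv1, Trgv2 and Trdv4, a pattern shown by 5.51% of all genes, and above them in 0 segments, against 5.25% of all genes.

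At baseline the beta segments leaned to higher readings in Cre+ cells, without passing. The median difference was 0.11 over the beta, 0.01 over the alpha, 0.27 over the gamma and 0.11 over the delta segments, and 0.00 over all genes. In 18 of the 147 segments, 13 of them beta, all 3 Cre+ arrays read above all 3 Cre- arrays, a pattern that 8.82% of all genes showed. The opposite pattern was seen in 1 segment, Trav13-5, against 7.42% of all genes. Beta segments share cells and arrays, and the Cre- baseline array 1 was the lowest of its group in all 13 Trbj segments and 11 of 21 Trbv segments. Trbv13-2 read 9.69, 9.62 and 9.66 in Cre+ cells, against 9.16, 9.32 and 9.46 in Cre- cells (difference 0.34, SE 0.15, limma adjusted p = 0.695), and Trbv15 stood 0.36 higher (limma adjusted p = 0.751).

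The gamma constant regions stood 0.32 to 0.65 higher in Cre+ baseline cells, and none passed. Trgc4 read 7.87, 8.29 and 7.55 in Cre+ cells, against 6.94, 7.74 and 7.07 in Cre- cells, so that Cre- baseline array 2 overlapped the Cre+ arrays (difference 0.65, SE 0.28, limma adjusted p = 0.665). Trgc2 stood 0.55 higher (limma adjusted p = 0.649) and Trgv4 0.58 higher (limma adjusted p = 0.751). Of the markers of gamma delta and innate-like T cells, Cd163l1 rose by 2.08 and Sox13 by 0.92 in Cre+ baseline cells (limma adjusted p = 0.000335 and 0.00766), and the other 6 measured did not pass. Of these 6, 4 had values below 0 (Blk, Ccr6, Il1r1 and Il23r), and the median over the 8 was 0.05. Any relation of these markers to the gamma constant regions was not tested.

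The activation responses of the genotypes were not shown to differ in any segment. The difference of the responses (the Cre+ change minus the Cre- change) passed in 0 of 147 segments, against 0.00863% of all genes, and 2 segments had an unadjusted p under 0.05, against 4.70% of all genes. These were Trav8n-2 (-0.76) and Trav2 (-0.62), with limma adjusted p = 0.9997 for both. The beta segments with the smallest p were Trbv19 (-0.49) and Trbv1 (-0.25). By class, the difference of the responses was above 0 in 40 of 50 Traj (median 0.16). It was below 0 in 41 of 44 Trav (median -0.15) and 20 of 21 Trbv segments (median -0.29), while in Trac it was 0.02 (SE 0.21). Over all genes it was above 0 in 10828 and below 0 in 12357 of 23185. Segments of a class share arrays and cells and are not independent, so these counts are a description without a test. The Traj median of 0.16 was smaller than the median deviation of single arrays from their group means in Traj. These were -0.51 for Cre- activated array 3 and 0.29 for Cre- baseline array 3, beside -0.33 for Cre+ activated array 3 and 0.22 for Cre+ baseline array 1.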

How the data were processed

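Total RNA was biotin-labelled and hybridised to 1-colour arrays. The authors deposited log2 expression values made with RMA (affy 1.36.1, R 2.15.1), per the submitters' processing notes. No source used here names the annotation build, and no coordinates are printed. Names and segment order come from RefSeq, in which all 147 segments matched a gene ID. Of 25206 probe sets, the 23185 with exactly 1 gene were tested and 2021 with no gene listed were left out. Group means of the 12 arrays were estimated together in limma 3.58.1 under R 4.3.3, which gave 8 residual degrees of freedom beside 3.55 prior ones. In each of 5 comparisons the threshold was an adjusted p of 0.05 (limma, two-sided, Benjamini-Hochberg over the 23185 genes). SE values are the moderated ones. The number of arrays limits the precision, and whether dim probe sets lay above background was not tested.

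Named segments were all constant regions and all gamma and delta segments, the largest changes or smallest p-values of the alpha and beta loci in each comparison, the segments with the widest spread among replicates and those of invariant receptors; exceptions are stated. The segments, lists and tests were chosen with earlier results of these data known. The alternatives changed the normalization (quantile, median centring), the genes tested (a mean of at least 5, all probe sets), the moderation (trended and robust), the weighting of arrays, the arrays fitted, and the design, with a block for the replicate number.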

Additional observations from a re-analysis of the deposited data

How the results depend on the processing

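The counts of segments that fell with activation ranged over the 9 settings other than leaving out 1 array from 109 to 131 in Cre+ and from 77 to 98 in Cre- cells, and no segment rose in any of them. Leaving out each of the 12 arrays in turn gave 58 to 128 segments in Cre+ and 56 to 106 in Cre- cells, and 0 segments each time in the genotype comparisons and in the difference of responses. The genotype comparison after activation gave 6 segments, all lower in Cre+ cells, with array weights and 0 in the other settings. With only members of a mean of at least 5, the delta median rested on 1 segment and was -0.99 in Cre+ and -1.11 in Cre- cells; fewer members were counted. Dimmer named segments have no value in that setting, and a fit of only the arrays compared was not run for the difference of responses, which uses all arrays. Among named segments, 26 of 39 that passed in Cre+ and 18 of 33 that passed in Cre- cells passed in every setting that gave a value, the others missed the threshold in at least 1, and no named result reversed. Same-numbered arrays were not taken as pairs, since not every correlation of their deviations from the group means exceeded 0.1. These ran from -0.09 to 0.73, the highest being 0.57 and 0.73 between Cre+ and Cre- activated arrays numbered 2 and 3. Between 1 and 4 of the 6 arrays of a comparison correlated best with the array of their own number. With the replicate number as a block, 113 segments fell in Cre+ and 97 in Cre- cells, and 0 passed in the other 3 comparisons. The block gave each number the same effect in baseline and activated arrays, so a pairing among the activated arrays alone was not tested. The number of arrays, and for dim segments the signal over background, limit what can be detected.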
